A study of Mus musculus with 4 samples.

Results

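Potassium channel genes outside the Kcnq, Kcnd and Kcnip families were described in single-nucleus RNA data of the mouse hippocampus. Members were all genes with a symbol starting in Kcna, Kcnab, Kcnb, Kcnc, Kcnf, Kcng, Kcnh, Kcnj, Kcnk, Kcnma, Kcnmb, Kcnn, Kcns, Kcnt, Kcnu or Kcnv, with antisense transcripts left out. This gave 76 members among 32285 annotated features. The study compared 2 trained with 2 untrained mice by 10x Chromium sequencing of nuclei. Trained mice had learned active place avoidance, in which an animal on a rotating arena keeps out of a shock sector, and untrained mice served as controls. Tissue of both groups was taken 3 days after a retention test, with no recall session before collection. All 4 mice carried ArcCreERT2::eYFPflx, a Cre recombinase driven by the activity-dependent gene Arc with a Cre-dependent reporter, which tags neurons that expressed Arc. The tag was not used here, so tagged and untagged neurons stand together, and each library was taken as 1 mouse. The p-values for training below measure only the spread between these 4 samples. Those between classes, and for a training difference between classes, come from fits with the library as a block. They measure the spread left between class sums of the same 4 samples once each library's own level is taken out.

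Potassium channels let potassium leave the cell, which sets the resting potential, ends the action potential and shapes the pause that follows it. Voltage-gated subunits (Kcna, Kcnb, Kcnc and Kcnh) open on depolarization, calcium- and sodium-activated subunits (Kcnma1, Kcnn and Kcnt) open after spikes, and inward rectifiers (Kcnj) and two-pore channels (Kcnk) act near rest. In the hippocampus, the mixture of subunits differs between principal neurons, interneurons and glia and is known to set firing rate and spike width.

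Barcodes with at least 600 UMIs numbered 6019 and 12206 in Trained replicates 1 and 2, and 16916 and 11969 in Untrained replicates 1 and 2. Their median depth was 736 and 887 UMIs in the trained libraries and 957.5 and 1079 UMIs in the untrained libraries, so Trained replicate 1 was the shallowest. Each barcode was put in a cell class by marker genes, none of which is a member. Between 24.2% and 38.7% of the barcodes of a library received a class, and classes named below are classes of barcodes that resemble a cell type by these markers. The 8 classes with at least 30 barcodes in every library were dentate granule (2292 barcodes), CA1 pyramidal (2861), CA3 pyramidal (1716), thalamic excitatory (2018), cortical or subicular excitatory (1091), inhibitory neuron (2474), oligodendrocyte (1272) and astrocyte (1573). The label gives hippocampus alone, but markers of thalamic and cortical neurons were present. The cortical or subicular class held only 39 barcodes in Trained replicate 1. Barcodes with under 400 UMIs were summed as a measure of free RNA, although they may also hold RNA of nuclei. Between 17 and 65 barcode sequences were shared by a pair of libraries.

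The members held 335639 UMIs in all, which was 0.692% and 0.651% of UMIs in Trained replicates 1 and 2 and 0.675% and 0.663% in Untrained replicates 1 and 2. Kcnma1 had the most UMIs (65049), followed by Kcnh7 (47247), Kcnb2 (27147) and Kcnc2 (25595). A UMI count grows with the number of nuclei and may grow with gene length, so these counts do not rank channel expression. Kcnj1 was listed at 0 UMIs, 21 members had fewer than 100 UMIs, and 31 had at least 1000. The count filter for comparing classes was passed by 46 members, and none of the other 30 had more than 265 UMIs. Those 30 included 4 of the 8 Kcna genes and 8 of the 15 Kcnj genes, for example Kcna3, Kcna5, Kcnj2 and Kcnj12. In 13 of the 46 the highest class level was below the level in low-UMI barcodes, for example Kcna2, which had 75.3 CPM (UMIs per 1000000 UMIs of the class) in oligodendrocytes and 119 CPM in low-UMI barcodes. In 18 of the 46 the highest class level was at least 3 times that in low-UMI barcodes. By the GENCODE vM21 annotation 21 of the 46 overlap a gene on the opposite strand and 2 (Kcnk2 and Kcnk4) a gene on the same strand. How reads on overlapping genes were assigned is not given in the sources used here.

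Which members mark which class was tested by setting the summed counts of each class against the mean of the other 7 classes, with the library as a block (edgeR quasi-likelihood test). A member was called where the Benjamini-Hochberg adjusted p was under 0.05 and the log2 difference at least 1 in size. The log2 difference is taken from mean log levels, and arithmetic means of CPM over the other classes can give another ratio. Over the 8 contrasts together there were 27 calls higher (7.34% of 368 member tests), where 3.88% of all gene tests were called higher. There were 22 calls lower (5.98% of member tests), where 3.14% of all gene tests were called lower. At least 1 call fell on 24 members, with 20 called higher somewhere and 16 called lower somewhere, and 22 of the 46 tested were called in no class. In 8 of the 27 higher calls every library of the class lay above every library of every other class. For these 8, and for the 24, 20 and 16 members, the matching share over all genes was not computed. The split by class is given next, with the share of all 10753 genes called in the same direction in parentheses.

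In CA1 pyramidal barcodes 4 members were higher (2.75%) and 2 lower (4.95%). In CA3 pyramidal barcodes 2 were higher (3.66%) and 5 lower (4.09%). In dentate granule barcodes 4 were higher (3.65%) and 7 lower (5.25%). These hippocampal principal neurons thus had 10 higher and 14 lower calls, with 46 members tested in each class. Of all genes, too, more were called lower than higher in each of these classes. An excess of lower calls was therefore not particular to members, and among members CA1 went the other way. In cortical or subicular barcodes 5 were higher (2.22%) and 1 lower (1.79%). In thalamic barcodes 3 were higher (5.77%) and 3 lower (5.93%), shares near those of the members tested. In inhibitory neurons 6 were higher (4.0%) and 3 lower (1.87%), the most higher calls of any class. In oligodendrocytes 2 were higher (4.09%) and 0 lower (0.372%). In astrocytes 1 was higher (4.85%) and 1 lower (0.856%). Several of these counts rose or fell with 1 library left out. The count filter then passed 40 to 47 members in place of 46, so the members tested changed as well. Without Trained replicate 2, CA1 had 4 lower calls, CA3 had 1 higher call, thalamic barcodes had 5 higher calls and the cortical or subicular class had 2 lower calls. Without Trained replicate 1, thalamic barcodes had 5 higher calls and the cortical or subicular class 2 lower calls. Without Untrained replicate 2, CA3 had 1 higher call, the cortical or subicular class 2 lower calls and astrocytes 0 in either direction, and without Untrained replicate 1 oligodendrocytes had 1 lower call. With free RNA subtracted, CA1 and inhibitory neurons had 6 lower calls each.

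**Figure D1:**
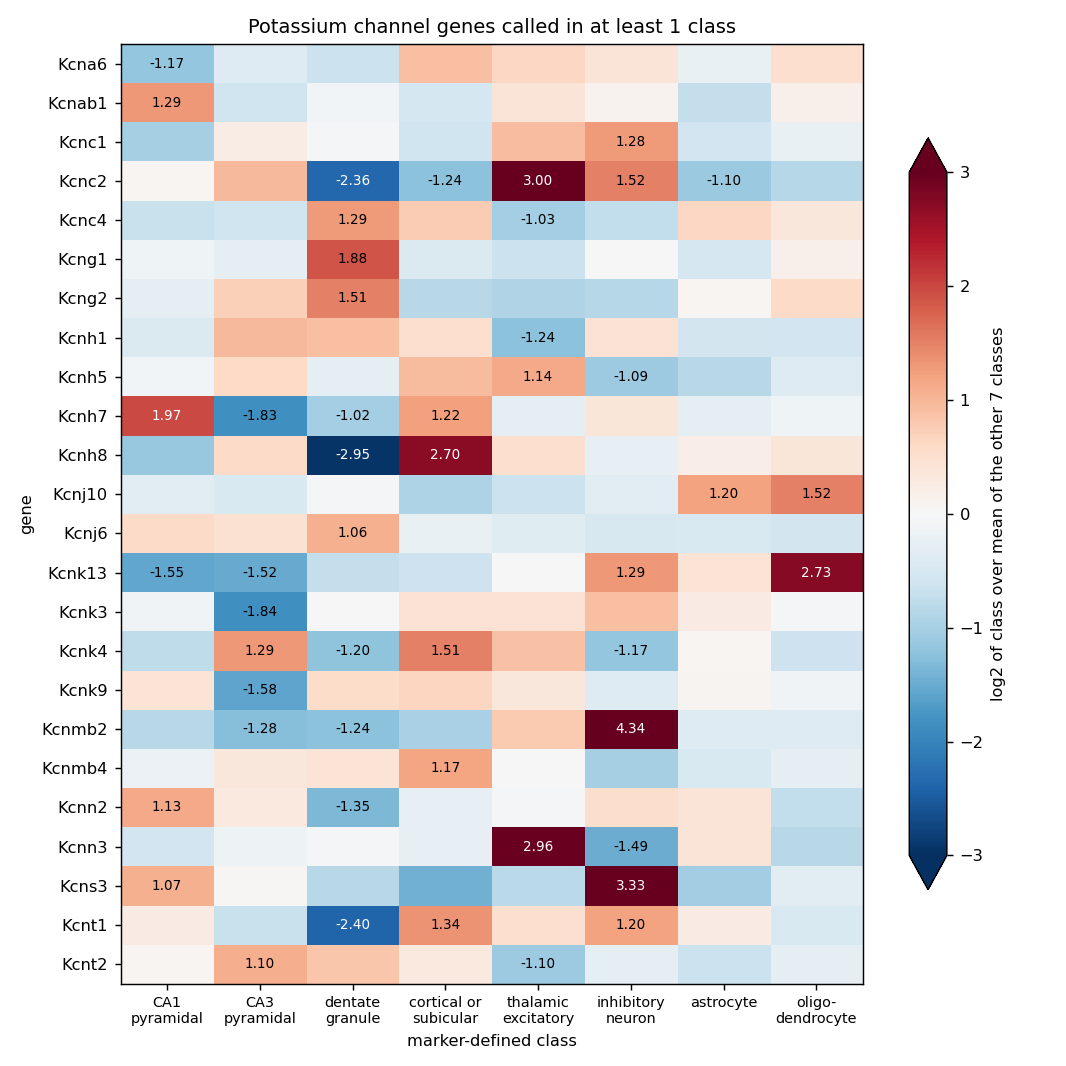
Log2 level of a class over the mean of the other 7 classes (colour) for the 24 members called in at least 1 class (rows) in the 8 tested classes (columns), with the value printed where the member was called. Kcnmb2 reached 4.34 in inhibitory neurons, Kcnc2 3.0 and Kcnn3 2.96 in thalamic barcodes, and dentate granule barcodes held the most lower calls.

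Among the voltage-gated Kcnc genes, which form fast-closing channels of rapidly firing neurons, Kcnc2 differed most between classes. In thalamic barcodes it had 1986 and 2202 CPM in Trained replicates 1 and 2 and 2438 and 2546 CPM in Untrained replicates 1 and 2. The mean of the other classes was 462 and 386 CPM in the trained libraries and 409 and 425 CPM in the untrained libraries. All 4 thalamic values lay above every value of every other class. The log2 difference was 3.0 ± 0.08 (SE; edgeR adjusted p = 1.56e-61).

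Inhibitory neurons had the next highest Kcnc2 level, with 792 and 1076 CPM in trained and 1085 and 1062 CPM in untrained libraries (log2 1.52 ± 0.09 SE; edgeR adjusted p = 4.71e-30). CA3 pyramidal barcodes followed with a mean of 658 CPM, and CA1 pyramidal barcodes with 395 CPM; neither was called. The dentate granule class was lowest, with 203 and 45.8 CPM in trained and 119 and 93.1 CPM in untrained libraries (log2 -2.36 ± 0.14 SE; edgeR adjusted p = 2.34e-29). Those values lie near or below the Kcnc2 level of low-UMI barcodes, which was 289 and 168 CPM in the trained libraries and 200 and 220 CPM in the untrained libraries. Kcnc2 was also called lower in the cortical or subicular class (log2 -1.24) and in astrocytes (log2 -1.10). In both of those classes the value of Trained replicate 1 stood well above the other 3, so their mean Kcnc2 levels carry an SD of 154 and 103 CPM. The astrocyte difference ran from log2 -1.25 to -0.95 with 1 library left out, so it did not always reach the size threshold.

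Kcnc1, the partner subunit typical of fast-spiking interneurons, was called higher in inhibitory neurons alone among the 8 classes. It had 197 and 207 CPM there in trained libraries and 216 and 200 CPM in untrained libraries, against means of 102, 90.6, 86.6 and 82.9 CPM over the other classes in the same order of libraries. All 4 values were higher than the other classes' mean in their own library, but not above every thalamic value. The log2 difference was 1.28 ± 0.09 (SE; edgeR adjusted p = 2.41e-24). The mean was 160 CPM in thalamic barcodes and 151 CPM in low-UMI barcodes. Summed over the 10 inhibitory markers, thalamic barcodes held 3634 and 3439 CPM in trained and 3869 and 4268 CPM in untrained libraries. Inhibitory neurons held 13193 and 14193 CPM of them in trained and 13022 and 13308 CPM in untrained libraries. Inhibitory neurons also held 3258 and 4355 CPM of the 8 CA1 markers in trained and 3674 and 3916 CPM in untrained libraries. The part of other cell types in the class levels was not tested.

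Kcnc4, which codes for an inactivating channel found at axon terminals, was called higher in dentate granule barcodes (log2 1.29 ± 0.20 SE) and lower in thalamic barcodes (log2 -1.03 ± 0.30 SE). The thalamic value ran from log2 -1.22 to -0.92 with 1 library left out, so it did not always reach the size threshold. The dentate values were 9.66 CPM, from 1 UMI, in Trained replicate 1 and 37.9 CPM in Trained replicate 2, with 34.4 and 37.5 CPM in the untrained libraries. Low-UMI barcodes held 35.8 CPM on average.

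Of the Kcna genes, whose channels sit along axons and set spike threshold, Kcna6 was the one called. It was lower in CA1 pyramidal barcodes, with 23.0 and 16.9 CPM in trained and 22.4 and 17.9 CPM in untrained libraries. The other classes averaged 49.0 ± 2.6 CPM (SD, n = 4 libraries), and no CA1 value reached any value of another class (log2 -1.17 ± 0.17 SE; edgeR adjusted p = 6.75e-09). Kcna1, mutated in episodic ataxia, was highest in oligodendrocytes at 186 ± 38 CPM and lowest in CA1 pyramidal barcodes at 76.8 ± 15.2 CPM (SD, n = 4). Both Kcna1 differences passed the adjusted p of 0.05 but not the size threshold, at log2 0.78 and -0.68, and low-UMI barcodes held 176 CPM. Kcna2, its usual partner, stayed between 37.9 CPM in CA1 and 75.3 CPM in oligodendrocytes.

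The cytoplasmic subunit Kcnab1, which joins Kcna channels and speeds their inactivation, was higher in CA1. It had 685 and 793 CPM there in trained libraries and 804 and 825 CPM in untrained libraries, while the other classes averaged 361 ± 23 CPM (SD, n = 4 libraries). No CA1 value overlapped another class, and the next class was thalamic at 446 CPM (log2 1.29 ± 0.08 SE; edgeR adjusted p = 3.55e-29). Kcnb2, a delayed rectifier of cell bodies and dendrites, ran from 339 CPM in astrocytes to 676 CPM in CA1 and was called in no class.

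Kcnf, Kcng, Kcns and Kcnv genes code for subunits that form no channel alone and modify Kcnb channels. Kcns3 was called in inhibitory neurons, where it had 23.99 and 38.8 CPM in trained libraries and 50.3 and 55.5 CPM in untrained libraries. Over the other classes the mean was 5.49 ± 2.03 CPM, and no value overlapped (log2 3.33 ± 0.25 SE; edgeR adjusted p = 1.45e-22). A second Kcns3 call, in CA1 (log2 1.07 ± 0.34 SE), rested on 38 UMIs and was above the other classes' mean in 3 of 4 libraries. That CA1 call was lost without Trained replicate 2 (log2 0.66) and without Untrained replicate 2 (log2 1.06, edgeR adjusted p = 0.0973).

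Of the 4 Kcng genes, Kcng1 and Kcng2 passed the class filter, and both were called in dentate granule barcodes. Kcng2 had 67.6 and 58.4 CPM there in trained and 39.6 and 67.4 CPM in untrained libraries, against 28.7, 25.5, 16.8 and 19.8 CPM over the other classes in the same order. The log2 difference was 1.51 ± 0.17 (SE; edgeR adjusted p = 3.39e-13), and low-UMI barcodes held 38.1 CPM. Kcng1 reached 28.4 CPM in Trained replicate 2 and 20.8 and 25.7 CPM in the untrained libraries, but 9.66 CPM, from 1 UMI, in Trained replicate 1 (log2 1.88 ± 0.29 SE; edgeR adjusted p = 3.29e-08). Kcng1 was therefore above the other classes' mean in 3 of 4 libraries.

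The Kcnh genes code for channels of the ether-a-go-go type, among them the erg subunits that damp excitability and the elk and eag subunits. Kcnh7, an erg subunit, was called in opposite directions in the CA1 and CA3 fields. In CA1 it had 1732 and 2298 CPM in trained libraries and 1844 and 1964 CPM in untrained libraries, and every value lay above all other classes (log2 1.97 ± 0.08 SE; edgeR adjusted p = 7.15e-46). In CA3 it had 235 and 122 CPM in trained and 269 and 179 CPM in untrained libraries, and every value lay below all other classes (log2 -1.83 ± 0.12 SE; edgeR adjusted p = 4.83e-28). CA3 was at or below the level of low-UMI barcodes, which was 411, 256, 266 and 259 CPM in the same order of libraries, with 1 value of the 4 slightly above it.

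The next highest Kcnh7 class was cortical or subicular, at 1357 ± 103 CPM (SD, n = 4; log2 1.22). Dentate granule barcodes had 351 ± 24 CPM and were called lower (log2 -1.02), a call lost at log2 -0.93 without Untrained replicate 1. Among the other Kcnh genes, Kcnh5 was called higher in thalamic barcodes at 116 ± 4 CPM (SD, n = 4; log2 1.14) and lower in inhibitory neurons (log2 -1.09). Kcnh1 was called lower in thalamic barcodes, with 46.7 ± 6.5 CPM against 121 ± 7 CPM over the other classes (SD, n = 4; log2 -1.24), and its highest level was 179 CPM in dentate granule barcodes.

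Kcnh8, an elk-type subunit, was called higher in the cortical or subicular class and lower in dentate granule barcodes. Cortical or subicular libraries held 32.3 CPM in Trained replicate 2 and 44.2 and 50.6 CPM in the untrained libraries. Trained replicate 1 had 0 Kcnh8 UMIs, which allows up to 97.0 CPM at 3 counts. Dentate granule barcodes had 3 Kcnh8 UMIs in 4 libraries, both trained libraries being at 0. Pooled over libraries this was 1.14 CPM in dentate granule barcodes (exact Poisson interval at 95% 0.235 to 3.33), against 43.2 CPM in the cortical or subicular class (32.4 to 56.3); the intervals cover counting error only. Of the classes too small to test, oligodendrocyte precursors had 95.5 CPM pooled (66.5 to 133) from 35 Kcnh8 UMIs in 333 barcodes, 26 of them from Untrained replicate 1.

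**Figure D2:**
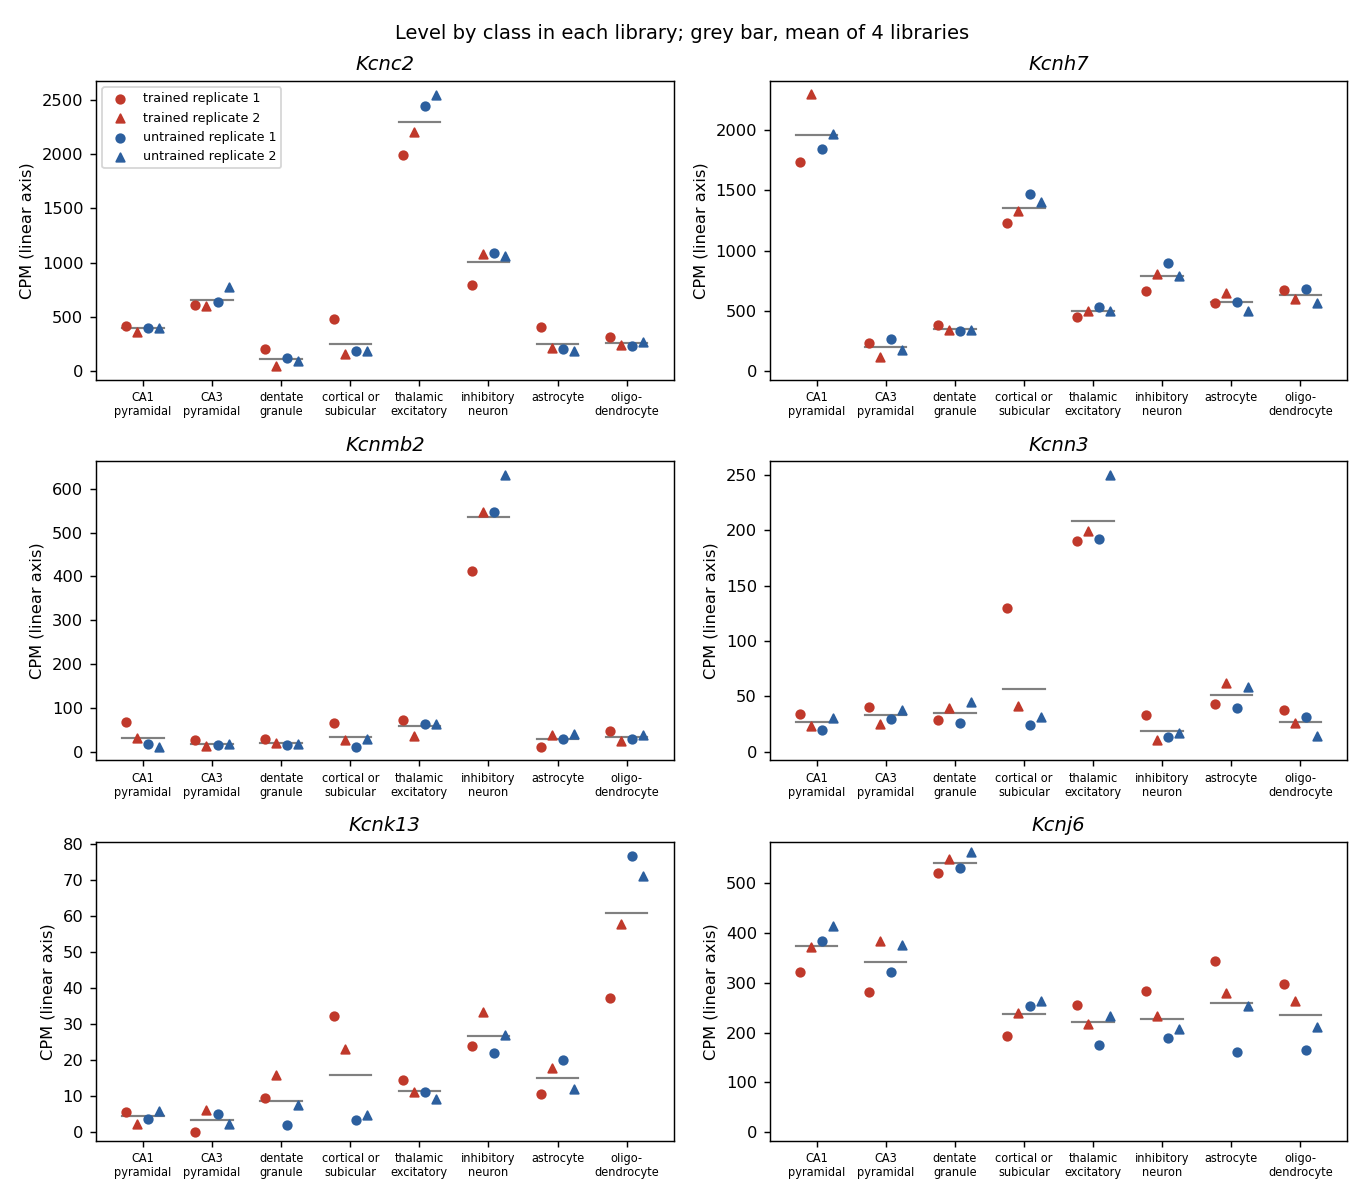
CPM (vertical axis, linear) of 6 members in each tested class, with trained libraries in red and untrained libraries in blue, circles for replicate 1, triangles for replicate 2 and a grey bar for the mean of the 4 libraries. Kcnc2 and Kcnn3 stood apart in thalamic barcodes, Kcnh7 in CA1, Kcnmb2 in inhibitory neurons, Kcnk13 in oligodendrocytes and Kcnj6 in dentate granule barcodes, in every library.

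Of the large-conductance calcium-activated channel, the pore gene Kcnma1 was broad. It was highest in thalamic barcodes at 1987 ± 75 CPM and lowest in oligodendrocytes at 869 ± 80 CPM (SD, n = 4), and no class passed the size threshold (log2 0.95 ± 0.08 SE in thalamic barcodes). Its CA3 level was 1566 and 1540 CPM in trained libraries and 1551 and 1538 CPM in untrained libraries, an SD of 12.9 CPM. Low-UMI barcodes held 574 CPM of Kcnma1 on average.

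Its accessory subunits Kcnmb2 and Kcnmb4 were each called higher in 1 class. Kcnmb2, which makes the channel inactivate, had 413 and 547 CPM in inhibitory neurons of trained libraries and 548 and 631 CPM in those of untrained libraries. The mean over other classes was 45.6, 27.7, 26.2 and 31.1 CPM in the same order, so no value overlapped. The log2 difference of 4.34 ± 0.10 (SE; edgeR adjusted p = 5.11e-69) was the highest of any member in any class. Kcnmb2 was called lower in CA3 (log2 -1.28) and dentate granule barcodes (log2 -1.24), where its means of 18.5 and 20.8 CPM were close to the 18.8 CPM of low-UMI barcodes. Kcnmb4, the main neuronal accessory subunit, was called higher in the cortical or subicular class at 86.0 ± 14.6 CPM, against 40.7 ± 1.1 CPM over the other classes (SD, n = 4; log2 1.17 ± 0.17 SE). Its next highest class was dentate granule at 60.0 CPM, and Kcnmb1 and Kcnmb3 were under the count filter.

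The small-conductance calcium-activated genes, whose channels give the slow pause after a spike train, divided the excitatory classes. Kcnn3 had 191 and 199 CPM in thalamic barcodes of trained libraries and 192 and 250 CPM in those of untrained libraries. The other classes averaged 35.5 ± 9.9 CPM (SD, n = 4 libraries), with no overlap (log2 2.96 ± 0.11 SE; edgeR adjusted p = 7.78e-49). Inhibitory neurons were called lower at 18.7 CPM, a level equal to low-UMI barcodes at 18.3 CPM. Kcnn2, known for limiting dendritic responses in CA1, had 478 and 631 CPM in CA1 of trained libraries and 632 and 627 CPM in CA1 of untrained libraries. The other classes averaged 288, 345, 284 and 330 CPM, and the log2 difference was 1.13 ± 0.07 (SE; edgeR adjusted p = 1.57e-26). Dentate granule barcodes were lowest at 148 ± 15 CPM (SD, n = 4; log2 -1.35), near the 123 CPM of low-UMI barcodes. Kcnn1 and Kcnn4 were under the count filter.

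The sodium-activated genes Kcnt1 and Kcnt2, whose channels open as sodium builds up during firing, were called higher in different classes. Kcnt1 had 19.3 and 14.2 CPM in dentate granule barcodes of trained libraries and 7.29 and 10.7 CPM in those of untrained libraries, below every value of the other classes (log2 -2.40 ± 0.22 SE; edgeR adjusted p = 1.43e-17). It was called higher in the cortical or subicular class at 102 ± 12 CPM (log2 1.34) and in inhibitory neurons at 94.2 ± 8.9 CPM (SD, n = 4; log2 1.2). Kcnt2 was called higher in CA3, with 343 and 398 CPM in trained libraries and 426 and 370 CPM in untrained libraries (log2 1.10 ± 0.09 SE; edgeR adjusted p = 7.97e-21). The dentate level of Kcnt2 was close to that, at 363 CPM, and thalamic barcodes were lowest at 105 ± 14 CPM (SD, n = 4; log2 -1.10), below all other classes.

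Among inward rectifiers, Kcnj3, Kcnj6 and Kcnj9 code for G protein-gated subunits that answer GABA-B and adenosine receptors. Kcnj6 had 522 and 549 CPM in dentate granule barcodes of trained libraries and 530 and 563 CPM in those of untrained libraries. The other classes averaged 271 ± 23 CPM, and no value overlapped (log2 1.06 ± 0.08 SE; edgeR adjusted p = 3.29e-21). Without Untrained replicate 1 this fell just under the size threshold, at log2 0.99. Kcnj3 stayed between 325 CPM in CA3 and 563 CPM in thalamic barcodes and was called in no class. Kcnj10, the glial channel that clears extracellular potassium, was called in both macroglial classes.

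In astrocytes Kcnj10 had 21.5 and 26.8 CPM in trained libraries and 41.5 and 58.2 CPM in untrained libraries (log2 1.2 ± 0.22 SE; edgeR adjusted p = 6.44e-06). In oligodendrocytes it had 28.0 and 35.3 CPM in trained libraries and 70.0 and 47.5 CPM in untrained libraries (log2 1.52 ± 0.22 SE; edgeR adjusted p = 1.49e-08). Low-UMI barcodes held 47.6 and 57.8 CPM in the trained libraries and 41.6 and 46.6 CPM in the untrained libraries, so neither class stood clear of them. The Kcnj10 astrocyte call was lost without Untrained replicate 2 (log2 0.98) and with a minimum of 1000 UMIs (log2 0.83, edgeR adjusted p = 0.210). Kcnj13, an epithelial channel of the choroid plexus, had 62.4 CPM pooled there (exact Poisson interval at 95% 29.9 to 115) from 10 UMIs. That level rested on a class with the marker Sostdc1 at 0, and Kcnj13 lies opposite Gigyf2 in the annotation.

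Two-pore genes give the resting leak, and Kcnk13 had the largest ratio of highest to lowest class mean among those tested (17.6). In oligodendrocytes it had 37.3 and 57.8 CPM in trained libraries and 76.8 and 71.2 CPM in untrained libraries. Elsewhere the mean was 13.8, 15.7, 9.64 and 9.86 CPM, and no value overlapped (log2 2.73 ± 0.24 SE; edgeR adjusted p = 9.87e-19). Kcnk13 is known as a microglial channel; the 53 microglial barcodes held 3 UMIs, or 41.0 CPM pooled (exact Poisson interval at 95% 8.45 to 120), and that class was too small to test. It was also called higher in inhibitory neurons at 26.7 ± 5.0 CPM (SD, n = 4; log2 1.29). CA1 and CA3 pyramidal barcodes were called lower, on 15 and 11 UMIs.

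Kcnk4, a mechanically gated channel, was called higher in CA3, where it had 13.4 and 17.5 CPM in trained libraries and 18.2 and 15.5 CPM in untrained libraries (log2 1.29 ± 0.30 SE; edgeR adjusted p = 0.000392). It was also called in the cortical or subicular class (log2 1.51 ± 0.38 SE), on 26 UMIs with 0 in Trained replicate 1. Both lower calls of Kcnk4, in dentate granule barcodes and inhibitory neurons, rested on 10 and 11 UMIs and were lost with DESeq2 (adjusted p = 0.0705 and 0.0794). The acid-sensitive pair fell together in CA3. Kcnk9 was at 12.5 ± 6.1 CPM in CA3, against 40.7 ± 3.5 CPM over the other classes (SD, n = 4; log2 -1.58 ± 0.24 SE), and Kcnk3 was at 3.55 CPM in CA3 from 7 UMIs (log2 -1.84 ± 0.45 SE). Kcnk2, a lipid- and stretch-gated channel, was highest in the cortical or subicular class at 142 ± 10 CPM and lowest in thalamic barcodes at 42.4 ± 2.1 CPM (SD, n = 4). Neither difference of Kcnk2 reached the size threshold, at log2 0.98 and -0.83.

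The study's question is what differs in the hippocampus while a place avoidance memory is kept, and training was therefore tested within each class (edgeR quasi-likelihood test, trained over untrained, 2 libraries a group). No member passed an adjusted p of 0.05. Of the members tested in each class, 0 of 40 were called in CA1 (0.00984% of all genes called), 0 of 36 in CA3 (0.0106%) and 0 of 37 in dentate granule barcodes (0.0212%). In the same test 0 of 34 were called in thalamic barcodes (0.0111%), 0 of 28 in the cortical or subicular class (0.0%), 0 of 41 in inhibitory neurons (0.0101%), 0 of 31 in oligodendrocytes (0.0%) and 0 of 31 in astrocytes (0.013%). Over all barcodes with at least 600 UMIs, a fit added after the data were seen, 0 of 61 members were called (0.0%). DESeq2 also called 0 members in every class.

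At an unadjusted p under 0.05, edgeR found 4 members in CA1 (4.01% of all genes), 0 in CA3 (3.29%), 0 in dentate granule barcodes (6.07%) and 0 in thalamic barcodes (3.91%). It found 1 in the cortical or subicular class (5.01%), 1 in inhibitory neurons (4.92%), 2 in oligodendrocytes (5.66%), 2 in astrocytes (10.8%) and 3 over all barcodes (6.27%). The median SE of a member's log2 difference was between 0.27 in thalamic barcodes and 0.38 in oligodendrocytes. A call absent here does not show that a level was equal in both groups. Overlap between the groups is given below as description alone. With 2 libraries a group, values can fail to overlap without any change, and members picked for a small p mostly do. The share of all genes without overlap was not computed, so no conclusion is drawn from it.

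**Figure D3:**
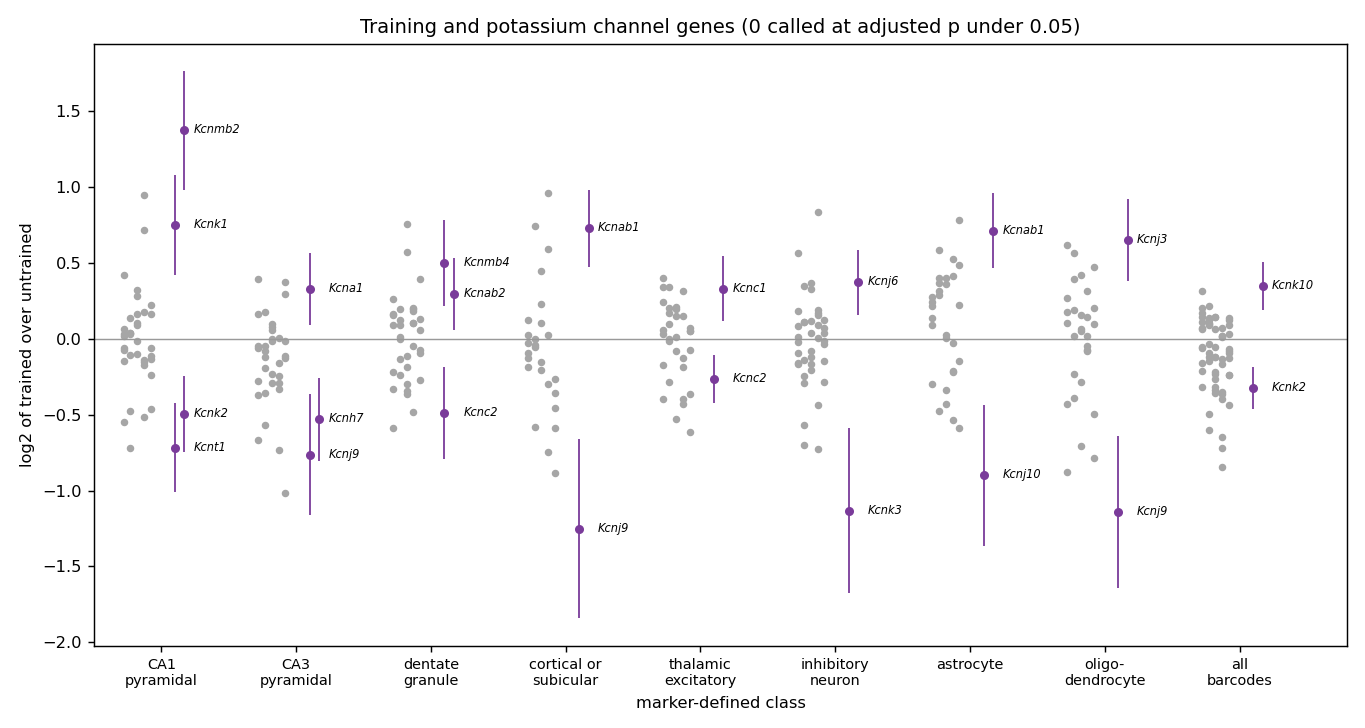
Log2 level of trained over untrained libraries for every member tested (points) in the 8 classes and over all barcodes. Purple points with bars (± 1 SE) mark members named for the smallest unadjusted p of a class in each direction, of which Kcnmb2 in CA1 had the smallest, and 0 members were called.

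The smallest p of all fell to Kcnmb2 in CA1 pyramidal barcodes. It had 69.0 and 31.4 CPM in trained libraries, from 12 and 26 UMIs, and 18.1 and 11.9 CPM in untrained libraries, from 25 and 14 UMIs. The groups did not overlap, and the log2 difference was 1.37 ± 0.39 (SE; edgeR adjusted p = 0.9999). Because Kcnmb2 is most abundant in inhibitory neurons, the 10 inhibitory markers were summed in the same CA1 barcodes. They gave 1036 and 410 CPM in trained libraries and 565 and 451 CPM in untrained libraries, with 9, 10, 10 and 10 of the 10 markers having at least 1 UMI, so Trained replicate 1 was highest for both and Trained replicate 2 lowest for the markers. Low-UMI barcodes held 28.1 and 14.6 CPM of Kcnmb2 in the trained libraries and 14.8 and 17.6 CPM in the untrained libraries. The part of inhibitory or free RNA in the Kcnmb2 difference was not tested. With free RNA subtracted the Kcnmb2 difference was not called either, which cannot decide this, because it was not called before subtraction.

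Next among the CA1 members by p in each direction was, upwards, the two-pore gene Kcnk1, with 57.5 and 36.2 CPM in trained libraries and 23.9 and 24.8 CPM in untrained libraries (log2 0.75 ± 0.33 SE). Kcnt1 had 28.8 and 36.2 CPM in trained CA1 and 60.0 and 54.6 CPM in untrained CA1 (log2 -0.72 ± 0.29 SE), and Kcnk2 had 46.0 and 83.3 CPM in trained CA1 and 108 and 102 CPM in untrained CA1 (log2 -0.49 ± 0.25 SE). None of these overlapped between groups, and each edgeR adjusted p was 0.9999. Kcnk2 was not among the 4 CA1 members under an unadjusted 0.05; the fourth was Kcng2 (log2 0.95 ± 0.43 SE), which overlapped between groups and was chosen after its values were seen. In CA3, where no member was under an unadjusted 0.05, Kcna1 had log2 0.33, with no overlap, and Kcnh7 and Kcnj9 had log2 -0.53 and -0.76, both with overlap. Each of their edgeR adjusted p was 0.9999. In dentate granule barcodes Kcnmb4 had 67.6 and 71.0 CPM in trained libraries and 43.7 and 57.8 CPM in untrained libraries (log2 0.50 ± 0.29 SE). Kcnab2 had log2 0.30 there and was not called. Kcnc2 had 203 and 45.8 CPM in trained dentate granule barcodes and 119 and 93.1 CPM in untrained ones, so the groups overlapped. Its log2 was -0.49 by edgeR, 0.16 by DESeq2 and 0.88 without Trained replicate 2, so no direction held.

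Outside the hippocampal principal neurons Kcnab1 had the smallest p upwards in both the cortical or subicular class and astrocytes. Astrocytes had 386 and 336 CPM of Kcnab1 in trained libraries and 218 and 225 CPM in untrained libraries, which did not overlap (log2 0.71 ± 0.25 SE; edgeR adjusted p = 0.292). The cortical or subicular class had 388 and 410 CPM in trained libraries and 243 and 234 CPM in untrained libraries, also with no overlap (log2 0.73 ± 0.25 SE; edgeR adjusted p = 0.920). Kcnab1 in low-UMI barcodes was 242 and 167 CPM in the trained libraries and 146 and 155 CPM in the untrained libraries, so it was higher there in trained libraries too. In astrocytes Kcnj6 had log2 0.58 ± 0.27 (SE; edgeR adjusted p = 0.435) and was the other member under an unadjusted 0.05, while Kcnj10 had log2 -0.90 ± 0.46 (SE) and was not under it. In oligodendrocytes Kcnj3 had log2 0.65 ± 0.27 (SE) and Kcnj9 log2 -1.14 ± 0.50 (SE), both with no overlap and both with an edgeR adjusted p of 0.847.

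Kcnj9 also had the smallest p downwards in the cortical or subicular class (log2 -1.25 ± 0.59 SE), from 2 and 5 UMIs in trained libraries and 50 and 19 UMIs in untrained libraries, with overlap. In inhibitory neurons the smallest p upwards and downwards fell to Kcnj6 (log2 0.37 ± 0.21 SE) and Kcnk3 (log2 -1.13 ± 0.54 SE), and in thalamic barcodes to Kcnc1 (log2 0.33 ± 0.21 SE) and Kcnc2 (log2 -0.26 ± 0.16 SE). Over all barcodes Kcnk10 had the smallest p upwards (log2 0.35 ± 0.16 SE) and Kcnk2 the smallest downwards (log2 -0.32 ± 0.14 SE), with edgeR adjusted p of 0.794 and 0.792. Kcnk10 was not under an unadjusted 0.05; Kcnab3 (log2 -0.50 ± 0.21 SE) and Kcnf1 (log2 -0.72 ± 0.31 SE) were, beside Kcnk2, and are named after their values were seen. Among members followed in every class whatever their p, Kcnma1 ran from log2 -0.03 in the cortical or subicular class to 0.36 in astrocytes. Kcna2 ran from -0.47 in astrocytes to 0.35 in inhibitory neurons. Kcnn2 ran from -0.15 in the cortical or subicular class to 0.27 in oligodendrocytes, and Kcnt2 from -0.08 in CA3 to 0.41 in astrocytes. Kcnj10 was below 0 in each of the 6 classes where it passed the filter, from -1.02 in CA3 to -0.19 in dentate granule barcodes, with a smallest edgeR adjusted p of 0.492. These classes come from the same 4 libraries, so their shared sign is not 6 separate observations.

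Whether the response to training differed between classes was tested as a difference of log2 values between pairs of CA1, CA3 and dentate granule, with the library as a block. No member was called: 0 of 42 for CA3 minus CA1 (0.0289% of all genes called), 0 of 43 for CA3 minus dentate granule (0.0%) and 0 of 43 for CA1 minus dentate granule (0.0%). At an unadjusted p under 0.05 edgeR found 2 of 42, 3 of 43 and 2 of 43 members. Of all genes, 429 of 10391, 443 of 10487 and 416 of 10770 were under it in the same order. The smallest p was that of Kcnh7 for CA3 minus CA1 (log2 -0.80 ± 0.21 SE; edgeR adjusted p = 0.325). In CA3 Kcnh7 had 235 and 122 CPM in trained libraries and 269 and 179 CPM in untrained libraries, and in CA1 1732 and 2298 CPM in trained libraries and 1844 and 1964 CPM in untrained libraries. Both classes overlapped between groups. The Kcnh7 difference was called without Trained replicate 1 (log2 -1.12, edgeR adjusted p = 1.31e-05) and without Untrained replicate 2 (log2 -1.10, edgeR adjusted p = 0.0149). It had the opposite sign without Trained replicate 2 (log2 0.16, edgeR adjusted p = 0.948), so single libraries decided it.

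**Figure D4:**
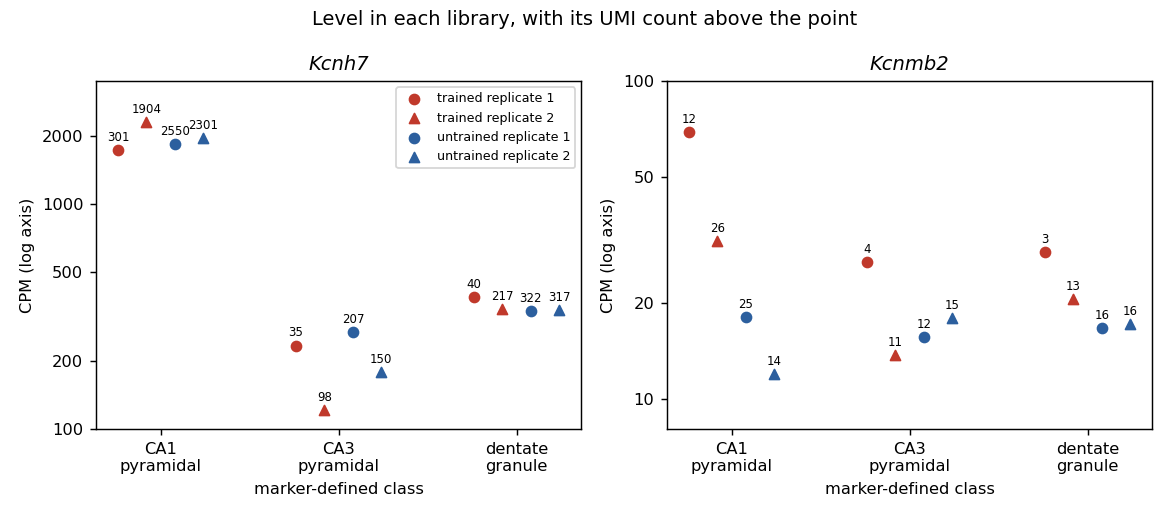
CPM (vertical axis, logarithmic) of Kcnh7 and Kcnmb2 in CA1, CA3 and dentate granule barcodes of each library, trained in red and untrained in blue, with the UMI count above each point. Kcnh7 in CA3 was lowest in Trained replicate 2 at 122 CPM, and Kcnmb2 in CA1 was higher in both trained libraries on 12 and 26 UMIs.

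Genes that work with these channels were taken as a list of 38, of which 37 were found and 27 passed the class filter. The list held partners of Kcna channels at the axon, Kcne subunits, gamma subunits of the Kcnma1 channel, sulfonylurea receptors, the receptors and regulators of G protein-gated channels, calmodulins and the HCN channels. For training, edgeR called 0 partners in any class or over all barcodes. At an unadjusted p under 0.05 it found 0 to 10 partners in a class. The most were in astrocytes, with 10 of 25 (10.8% of all genes), and the fewest in inhibitory neurons, with 0 of 25 (4.92%). DESeq2 called 1 partner higher and 1 lower in astrocytes, where it called 27 of 7669 genes higher and 5 lower. Thinning to 600 UMIs gave 2 higher and 1 lower there, with 57 of 5681 genes called higher and 27 lower. Without a count filter all barcodes had 2 lower partner calls, with 115 of 26014 genes called lower. Partners were also called in some fits with 1 library left out, which leave 1 library in a group. Those without Untrained replicate 2 called partners in oligodendrocytes, astrocytes and over all barcodes, and many other genes beside them. Thalamic barcodes without Trained replicate 1 and dentate granule barcodes without Trained replicate 2 also had partner calls. Whether partners were called more often than other genes was not tested. The list's median log2 over the 8 classes ran from -0.11 in the cortical or subicular class to 0.03 in astrocytes, against -0.03 and 0.0050 over all genes tested in those classes, and it was 0.07 over all barcodes. Kctd8, an auxiliary subunit of GABA-B receptors, had, in CA3, 47.0 and 22.5 CPM in trained libraries and 80.5 and 52.5 CPM in untrained libraries (log2 -1.28 ± 0.37 SE; edgeR adjusted p = 0.9999). Kctd8 was called between classes, for CA3 minus CA1 (log2 -1.94 ± 0.40 SE; edgeR adjusted p = 0.0377). That call was lost with any 1 library left out (edgeR adjusted p of 0.0604 to 0.302) and without the library block (edgeR adjusted p = 0.999998). Its CA1 values were 109 and 39.8 CPM in trained libraries and 46.3 and 21.3 CPM in untrained libraries, so the groups overlapped there.

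Between classes, with 27 partners tested in each of the 8 contrasts, the partners were called 13 times higher and 6 times lower. Of all gene tests in these contrasts, 3.88% were called higher and 3.14% lower. Dentate granule barcodes had 1 higher call, Lgi1 (log2 1.24), a secreted partner of Kcna complexes, and 5 lower calls, among them Cntnap2 (log2 -1.79), which clusters Kcna channels at axons. CA1 had 2 higher calls, among them Cntnap2 (log2 1.36), and Rgs6 lower (log2 -1.40), and CA3 had Cntnap2 higher (log2 1.02). Thalamic barcodes had the GABA-B receptor gene Gabbr2 (log2 1.34) and the G protein regulator Rgs7 (log2 1.05) higher. The cortical or subicular class had Rgs6, Lrrc55 and Dlg1 higher, inhibitory neurons had 3 higher calls, among them Kctd8 (log2 1.97) and Rgs6 (log2 1.0), and oligodendrocytes had Cntn2 higher (log2 1.59). Astrocytes had none, with a median of -0.44 for the list, against 0.0061 over all genes tested, and the list's median was -0.02 without Untrained replicate 1.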

How the data were processed

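The deposited files hold UMI counts per gene and barcode, not normalized, made with Cell Ranger 7.0.0 per the file headers; the submitters' processing notes name Cell Ranger 8, STAR and GRCm39. No column of another series was present. All 4 libraries were used. Barcodes with at least 600 UMIs were put in the best of 14 marker classes by summed marker z scores against the library's own mean (0.1 was added to the expected count). The best class needed a score of at least 2, a lead of at least 1 and at least 2 marker UMIs from at least 2 markers. The markers were fixed first and this scoring rule was set after the data were seen. Ambiguous barcodes (333, 788, 860 and 756 in Trained replicates 1 and 2 and Untrained replicates 1 and 2) were left out, which was the treatment of doublets; no doublet caller was run. A droplet holds free RNA as well, so levels in barcodes under 400 UMIs stand beside the results.

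Counts were summed per class and library, and the library is the replicate. Differences were fitted by the quasi-likelihood F test of edgeR 4.0.16 (R 4.3.3) after filterByExpr and TMM scaling, with Benjamini-Hochberg adjustment over all genes of a fit at 0.05. The SE was derived as |log2| over the root of F. DESeq2 1.42.0 was an alternative. Python 3.11.15, numpy 2.4.6, scipy 1.17.1, pandas 2.3.3 and matplotlib 3.10.9 were used. The fits were tested on simulated data with 100 changed genes. Training changes of 2-fold were called in 35% of them in dentate granule, 45% in CA1 and 33% in CA3 barcodes. Changes of 4-fold were called in 76%, 89% and 78%, and unchanged genes called were 2, 5 and 0 in the same order. Class differences in inhibitory neurons were called in 50% at 2-fold and 98% at 4-fold. Many training changes of 2-fold would thus be missed. Limits on counts of 0 are 3 counts, and intervals cover counting error only.

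Members and lists were chosen with earlier results of these data known. The text names up to 3 members per class among the highest called, the smallest p in each direction for training, some members followed throughout, and called partners, but a few members and partners that this rule names are not reported here. Other called members were named because they were called. Same-numbered samples were not paired by the labels, and their deviations correlated at -0.011 to 0.0937, so no pairing was assumed.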

Additional observations from a re-analysis of the deposited data

Results flagged for a closer look

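In 49 sets of 4 library values checked with Dixon's criterion, 8 had 1 library far from the other 3. Chance gives about 1 in 20 for independent sets of normal values with equal spread. The 49 sets share the same 4 libraries, and Trained replicate 1 had the fewest barcodes, so that rate need not hold here. Of the 8, 7 were in Trained replicate 1, the shallowest library. Kcnc2 in Trained replicate 1 was high in astrocytes, at 408 CPM with the other libraries between 189 and 211 CPM, and in the cortical or subicular class, at 485 CPM with the others between 161 and 189 CPM. In inhibitory neurons, which express it more, Kcnc2 was low in Trained replicate 1, at 792 CPM with the others between 1062 and 1085 CPM. Kcnc2 in low-UMI barcodes was highest in that library as well, at 289 CPM, and the part of free RNA in these values was not tested. Kcnh7 in dentate granule barcodes was high in Trained replicate 1, at 386 CPM with the others between 335 and 342 CPM. Kcnk3 in CA3 was at 6.72 CPM there, from 1 UMI, with the others between 2.39 and 2.60 CPM. Kcnn2 in CA1 was low in Trained replicate 1, at 478 CPM with the others between 627 and 632 CPM. Kcnc4 in dentate granule barcodes was at 9.66 CPM there, from 1 UMI, with the others between 34.4 and 37.9 CPM. The remaining value was Kcnn3 in thalamic barcodes of Untrained replicate 2, at 250 CPM with the others between 191 and 199 CPM.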

How the results depend on the processing

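For the 49 class calls, 569 of 590 recomputed values kept direction and call, 21 kept direction but lost the call, and 0 reversed. A call whose member missed the count filter of an alternative has no value there and is not among the 590. Thinned to 600 UMIs, for example, 34 calls were kept and 3 lost, and the rest of the 49 had no value. With 1 library left out, the Kcnk4 calls and the Kcnk3 call in CA3 had a value in 1 fit alone. For the 22 named training values, 324 of 326 kept direction, with no call, and 2 reversed: Kcnc2 in dentate granule barcodes under DESeq2 (log2 0.16) and without Trained replicate 2 (log2 0.88; -1.16 to 0.88 with 1 library left out). The count of members called for training stayed at 0 within classes and over all barcodes under every alternative run, and between classes was 1 (Kcnh7) without Trained replicate 1 or without Untrained replicate 2. With the replicate block 0 members were called for training, and genes called over the 8 classes were 21 in place of 7. That count was 37 with DESeq2, 31 without a count filter, 25 with at least 1000 UMIs, 91 thinned to 600 UMIs and 1 with free RNA subtracted. Leaving out 1 library gave 25 to 553, the highest without Untrained replicate 2; the others were 35 without Trained replicate 1, 44 without Trained replicate 2 and 25 without Untrained replicate 1. Over all barcodes genes called were 4 with DESeq2, 159 without a filter, 1 with at least 1000 UMIs and 1 to 189 with 1 library left out, in place of 0. The causes were not tested. Genes called higher over the classes were 5407 without a filter, in place of 3334.

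Members called higher in dentate granule barcodes were 2 with at least 1000 UMIs, 2 thinned and 7 with free RNA subtracted, in place of 4. CA3 had 1 with at least 1000 UMIs and 1 to 3 with 1 library left out, in place of 2. Thalamic barcodes had 5 without the 5% of barcodes with most UMIs, 6 with free RNA subtracted and 4 to 5 with 1 library left out, in place of 3. Astrocytes had 2 without a filter, 2 with free RNA subtracted, 0 with at least 1000 UMIs and 0 to 1 with 1 library left out, in place of 1. Lower calls in CA1 were 4 without a filter and 4 with at least 1000 UMIs, in place of 2. With free RNA subtracted they were 5 in place of 3 in thalamic barcodes and 3 in place of 1 in astrocytes. Thinning gave 3 in place of 5 in CA3 and 1 in place of 3 in inhibitory neurons. Depth limits members with few UMIs most, above all in the cortical or subicular class of Trained replicate 1 with 39 barcodes. A gene listed at 0 there could be at up to 97.0 CPM.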
